A study of Mus musculus with 6 samples.

Results

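Transcript levels of 10 genes of the retinoic acid pathway were followed in HK-2 cells with and without overexpression of USAG-1. The genes were the retinal dehydrogenases ALDH1A3, ALDH1A1 and ALDH1A2, the retinal reductase DHRS3, the degrading enzyme CYP26B1, the binding protein CRABP2, and the receptors RARA, RARB, RARG and RXRA. They were matched by symbol among the 39234 genes of the deposited table, all 10 were found, and 9 of the 10 had enough counts to be tested. The set was chosen because ALDH1A3 fell strongly in this same contrast, so the values of ALDH1A3 are given as a description with no test, and tests are given for the other members.

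RNA was sequenced from 6 libraries, 3 labelled control and 3 labelled USAG-1 overexpression, to ask which transcripts differ when HK-2 cells make more USAG-1, the secreted BMP antagonist encoded by SOSTDC1. HK-2 is an immortalised line of human proximal tubule epithelium, bought from a supplier and not authenticated by STR profiling. The sample labels give genotype WT in both groups and add the overexpression in the second group only. The study's methods describe overexpression by transient transfection of plasmids, and the sources used here do not state the plasmid that control cells received or the time of harvest for these libraries. Mouse is the organism in the labels, but the gene identifiers, the symbols and the hg38 build named in the submitters' processing notes are human. Nothing in the labels says that the replicates were separate cultures, so the p-values measure the spread between these libraries, which may be technical.

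Retinoic acid is the active form of vitamin A. Retinol is taken up, stored as esters and reversibly oxidised to retinal, and the ALDH1A enzymes then oxidise retinal irreversibly to retinoic acid, while DHRS3 returns retinal to retinol. Retinoic acid is carried by CRABP2 to nuclear receptors, in which an RAR pairs with an RXR on DNA, and it is broken down by the CYP26 enzymes; several genes of the pathway, among them DHRS3, RARB, CYP26A1 and CRABP2, are known to be induced by retinoic acid itself in many cell types. In the kidney, retinoic acid is best known for its part in nephron development and in the response of the tubule to injury.

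Total counts per library were between 41236194 and 48699471 in the control group and between 42782931 and 45448720 in the overexpression group, so that 3 counts, taken as the floor of detection, stood for 0.0608 to 0.0719 CPM, counts scaled to a library of 1000000 counts. As a check of the labels, SOSTDC1 itself rose from 1.64 ± 0.243 to 101 ± 10.6 CPM (mean ± SD, n = 3; log2 fold change 5.94, SE 0.13, adjusted p = 6.96e-07, from the quasi-likelihood test of edgeR, adjusted by Benjamini-Hochberg over all genes). Control replicate 3 stood apart from the other control libraries, with a chi-square of counts over genes, per degree of freedom, of 47 and 48.1 against them, whereas the other pairs within a group gave 6.79 to 8.70. The share of counts from mitochondrially encoded genes was 4.80% to 5.59% in control and at most 1.55% in overexpression libraries. Of 9 proximal tubule markers in the table, 5 could be tested and 2 were higher, GGT1 and MME. LRP2, which encodes megalin, was at 0 in every library, and CUBN, AQP1 and SLC13A3 had too few counts to be tested. Of 8 general markers of renal epithelium, 6 could be tested and 1, PAX8, was higher, while CDH1 and PAX2 had too few counts. Over all genes tested, 8.95% were higher and 6.91% lower. All 13 markers of T and NK cells were lower in the overexpression group, where their summed level was 7.12 to 9.54 CPM against 87.3 to 109 CPM in the control group, and none was at 0 in all libraries. Among them were the granule proteins GNLY (log2 fold change -4.34) and GZMB (-4.31), the T cell receptor gene TRAC (-4.41) and the kinase LCK (-2.51). The source of these transcripts in libraries of an epithelial line was not tested, and the values do not show that such cells were present. In bulk libraries, fewer cells of a type and less RNA per cell also cannot be told apart.

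ALDH1A3, which oxidises retinal to retinoic acid, fell in every overexpression library to 30.7% of its control level. The gene lies on the plus strand of chromosome 15 from 100877714 to 100916626 (hg38) and is listed as ENSG00000184254. Its level, scaled by trimmed mean of M values (TMM), was 317, 314 and 321 CPM in control replicates 1 to 3 and 101, 98.5 and 92.6 CPM in overexpression replicates 1 to 3. The groups were far apart, and within a group the libraries lay close together. The means were 317 ± 3.70 and 97.3 ± 4.16 CPM (SD, n = 3), a 3.26-fold lower value with a log2 fold change of -1.70 (SE 0.06). Without control replicate 3 the log2 fold change was -1.69. It stayed between -1.73 and -1.67 over all 14 alternative settings, and the T and NK cell markers and the mitochondrial share moved in the same direction across the groups. Their part in the fall of ALDH1A3, and in the changes of the other genes below, was not tested.

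The fall was not the steepest in the data, but few abundant transcripts fell further. ALDH1A3 was number 342 from the lowest log2 fold change among the 18188 genes tested, number 46 among the 11289 with a mean of at least 5 CPM, and number 16 among the 2189 with a mean of at least 100 CPM. These ranks only describe the fall that chose the set. The abundant genes that fell further included the mitochondrially encoded MT-ND1 (-1.74) and MT-CO2 (-1.76). Genes within 250000 bases of it on chromosome 15 gave values of both signs. ALDH1A3-AS1, which overlaps it on the opposite strand, had 474, 849 and 325 counts in control and 370, 318 and 260 in overexpression libraries (log2 fold change -0.76, SE 0.27, edgeR adjusted p = 0.0993). Its total was 4.69% of the counts of ALDH1A3. LRRK1, a kinase gene that starts 2701 bases past the end of ALDH1A3, fell with a log2 fold change of -0.39 (SE 0.07, edgeR adjusted p = 0.00648), and ASB7, 226013 bases away, had a log2 fold change of 0.17 (SE 0.09, edgeR adjusted p = 0.259). The unnamed gene ENSG00000279588, 91525 bases away, had few counts, 51, 47 and 31 in control and 11, 22 and 0 in overexpression libraries, with a log2 fold change of -1.95 (SE 0.84, edgeR adjusted p = 0.16).

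**Figure D1:**
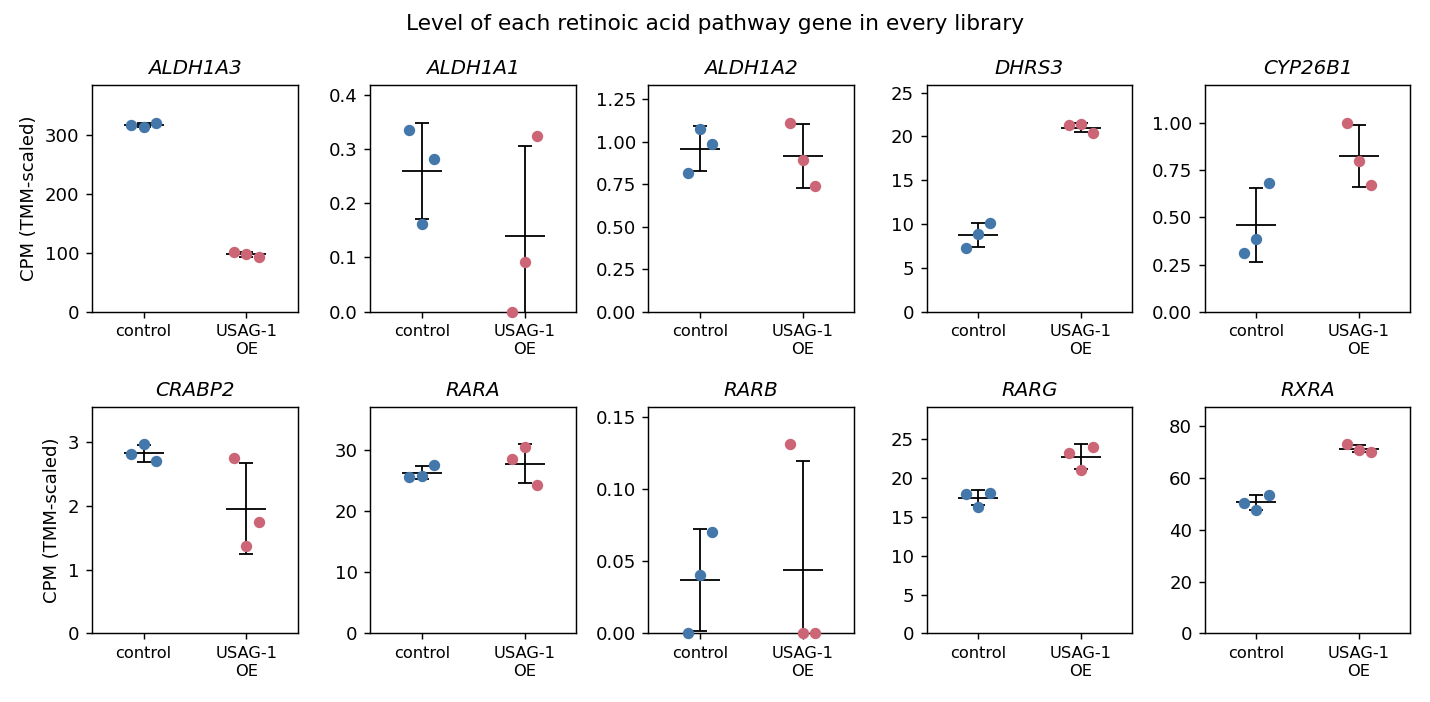
Level of each of the 10 genes in every library, in TMM-scaled CPM on axes that start at 0, for control (left) and USAG-1 overexpression (right); points are libraries in replicate order, the long bar is the mean and the short bars are 1 SD (n = 3), drawn only above 0. ALDH1A3 lies at 314 to 321 CPM in control and 92.6 to 101 CPM in overexpression libraries, DHRS3, RARG and RXRA lie higher in every overexpression library, and the other 6 genes overlap between the groups.

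Among the other 8 members that could be tested, 3 rose with USAG-1 overexpression, DHRS3, RXRA and RARG, and none fell. That is 37.5% of the 8, while over all 18188 genes tested 15.9% were called at an adjusted p under 0.05, 8.95% higher and 6.91% lower. The CPM values of the groups did not overlap for the same 3 genes, again 37.5%, which was near the 37.6% of all genes tested whose groups did not overlap. The median log2 fold change was 0.23 over the 8 members and -0.02 over all genes tested. As the members were chosen with earlier results of these data known, these shares are descriptions. RARB had too few counts to be tested.

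**Figure D2:**
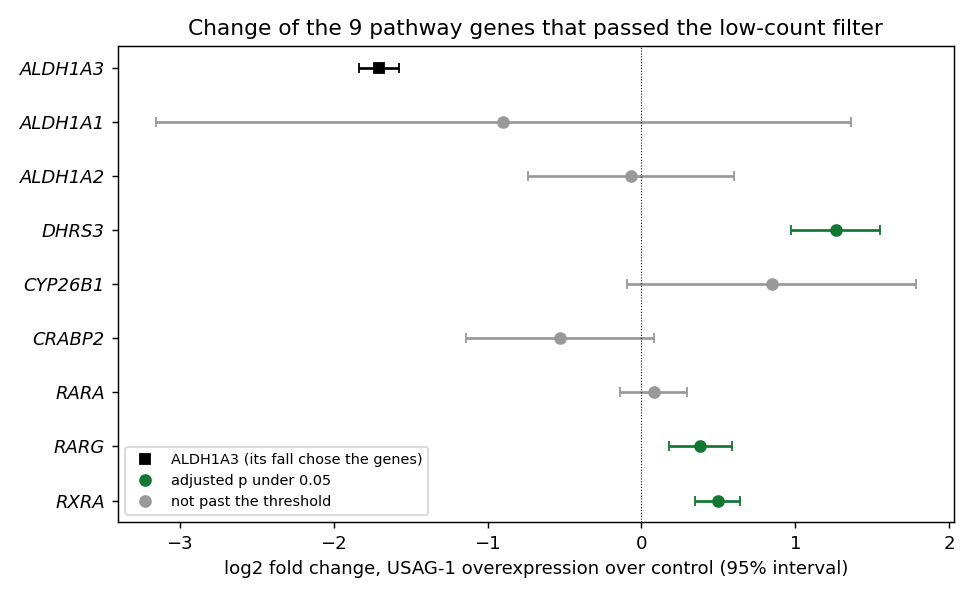
Log2 fold change of USAG-1 overexpression over control for the 9 members that could be tested, with 95% intervals from edgeR (n = 3 per group) and a dotted line at 0. ALDH1A3, drawn as the gene that chose the set, lies at -1.70, and its interval is a description and not a test. DHRS3 lies at 1.26, RXRA at 0.50 and RARG at 0.38, and the intervals of the other 5 genes include 0.

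The other ALDH1A enzymes had few counts in both groups, and neither passed the threshold. ALDH1A1 (ENSG00000165092, chromosome 9, 72900671 to 73080442), the retinal dehydrogenase also used as a stem cell marker, had 14, 8 and 12 counts in control and 0, 4 and 14 in overexpression libraries. The overexpression libraries spread over the whole range from none to the highest count, which control replicate 1 shared, and the log2 fold change was -0.90 (SE 0.98, 95% interval -3.16 to 1.36, edgeR adjusted p = 0.593). ALDH1A2 (ENSG00000128918, chromosome 15, 57953425 to 58473913), the main retinal dehydrogenase of the early embryo, had 34, 53 and 42 counts in control and 51, 39 and 32 in overexpression libraries. The groups overlapped, at 0.958 ± 0.132 and 0.915 ± 0.186 CPM (SD, n = 3), with a log2 fold change of -0.07 (SE 0.29, 95% interval -0.74 to 0.60, edgeR adjusted p = 0.908). Its locus also holds LIPC and AQP9 on the opposite strand and LIPC-AS1 on its own, with 530, 487 and 119 counts over the 6 libraries against 251 for ALDH1A2, so its low counts are uncertain. A 2-fold change of ALDH1A1 in either direction lay inside its interval and was not detectable at this depth.

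Other enzymes that can oxidise retinal or related aldehydes gave a single large change. CYP1B1, a cytochrome P450 that oxidises steroids and xenobiotics and can also convert retinol and retinal, was at 105, 111 and 103 CPM in control and 56.7, 51.5 and 46.4 CPM in overexpression libraries. It fell in every overexpression library, with a log2 fold change of -1.05 (SE 0.08, edgeR adjusted p = 3.73e-04). ALDH8A1, which oxidises 9-cis-retinal, had 30, 19 and 25 counts in control and 31, 31 and 15 in overexpression libraries (log2 fold change 0.04, SE 0.43, edgeR adjusted p = 0.962). In the aldehyde dehydrogenase family outside the members, ALDH8A1 included, 13 of 14 genes in the table could be tested. Their log2 fold changes lay between -0.42 and 0.24 with a median of -0.06, and 1 fell, 7.69% beside the 6.91% of all genes tested that were lower. It was ALDH4A1, a mitochondrial enzyme of proline breakdown, which went from 24.3 ± 1.25 to 19.7 ± 0.427 CPM (SD, n = 3; log2 fold change -0.30, SE 0.08, edgeR adjusted p = 0.0314). Its call was lost when control replicate 1 or 2 or any overexpression library was left out, at -0.33 to -0.29. ALDH6A1, an enzyme of valine breakdown, was second to it by p but did not pass the threshold (log2 fold change -0.42, SE 0.15, edgeR adjusted p = 0.0963), and it overlaps BBOF1, which had 55.7% of its counts. ALDH18A1 and ALDH9A1, the members of highest count, had log2 fold changes of -0.06 (SE 0.09, edgeR adjusted p = 0.685) and -0.08 (SE 0.07, edgeR adjusted p = 0.487).

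DHRS3 showed the largest rise among the members. This short-chain reductase (ENSG00000162496, chromosome 1, 12567910 to 12618210) turns retinal back to retinol and thereby lowers the substrate of the ALDH1A enzymes. It was at 7.31, 8.86 and 10.1 CPM in control and at 21.3, 21.4 and 20.4 CPM in overexpression libraries. Every overexpression library was at least 2-fold above every control library, and the control libraries spread more widely than the overexpression libraries. The means were 8.76 ± 1.40 and 21.0 ± 0.545 CPM (SD, n = 3), a 2.40-fold rise (log2 fold change 1.26, SE 0.13, edgeR adjusted p = 8.81e-04). The rise was called in all 14 alternatives, with log2 fold changes of 1.15 to 1.38, the highest of them without control replicate 3.

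Of the 18 other oxidoreductases of retinol and retinal that were measured, 11 could be tested and 1 rose. That share, 9.09%, was near the 8.95% of all genes tested that were higher, and the median log2 fold change was -0.01. It was RDH11, a retinal reductase of the endoplasmic reticulum, at 59.3, 61.8 and 67.3 CPM in control and 76.6, 80.7 and 81.7 CPM in overexpression libraries. The groups did not overlap (log2 fold change 0.34, SE 0.07, edgeR adjusted p = 0.0124), but the call was lost without control replicate 2 or overexpression replicate 2 or 3, at 0.33 to 0.34. AKR1B10, a reductase of retinal and other aldehydes, had 0, 6 and 16 counts in control and 29, 21 and 26 in overexpression libraries. Its groups did not overlap, but it did not pass the threshold (log2 fold change 1.77, SE 0.87, 95% interval -0.22 to 3.76, edgeR adjusted p = 0.211). ADH5, an alcohol dehydrogenase, had a log2 fold change of -0.01 (SE 0.09, edgeR adjusted p = 0.975), which is uncertain because its pseudogene ADH5P4 had 657 counts.

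Of 10 measured genes of retinol uptake and storage, 8 could be tested, and 1 rose and 1 fell. These 2 were 25% of the 8, beside 15.9% called over all genes tested, 8.95% higher and 6.91% lower. The median log2 fold change of the 8 was -0.06. STRA6, the membrane receptor that takes retinol from its serum carrier, had 402, 532 and 480 counts in control and 356, 300 and 361 in overexpression libraries. Its level fell from 10.6 ± 0.837 to 7.66 ± 0.752 CPM (SD, n = 3; log2 fold change -0.46, SE 0.13, edgeR adjusted p = 0.0427), and leaving out any of the 6 libraries ended the call, at -0.53 to -0.39. BCO1, which splits beta-carotene into retinal, had 54, 82 and 93 counts in control and 144, 168 and 183 in overexpression libraries. It rose from 1.71 ± 0.446 to 3.74 ± 0.560 CPM (SD, n = 3; log2 fold change 1.13, SE 0.24, edgeR adjusted p = 0.0168), and the call was lost without control replicate 2 or overexpression replicate 2 or 3, at 1.03 to 1.11. DGAT1, which can esterify retinol, did not pass the threshold (log2 fold change -0.38, SE 0.12, edgeR adjusted p = 0.0683) and shares its locus with HSF1. PNPLA4, a lipase that acts on retinyl esters, had a log2 fold change of -0.12 (SE 0.10, edgeR adjusted p = 0.451).

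CRABP2, which hands retinoic acid to the receptors in the nucleus, did not pass the threshold. The gene (ENSG00000143320, chromosome 1, 156699606 to 156705816) was at 2.80, 2.96 and 2.70 CPM in control and at 2.74, 1.37 and 1.74 CPM in overexpression libraries. Overexpression replicate 1 lay among the control libraries and the other overexpression libraries lay below them. The means were 2.82 ± 0.132 and 1.95 ± 0.710 CPM (SD, n = 3), with a log2 fold change of -0.53 (SE 0.27, 95% interval -1.14 to 0.08, edgeR adjusted p = 0.226). Leaving out overexpression replicate 1 gave -0.86 and leaving out overexpression replicate 2 gave -0.33, neither past the threshold. CRABP1, the related protein that holds retinoic acid in the cytoplasm, had no count in any library. FABP5, which also binds retinoic acid, had a log2 fold change of -0.14 (SE 0.08, edgeR adjusted p = 0.264) and shares sequence with several pseudogenes, of which FABP5P7 had 755 counts.

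The degrading enzymes were low, and none of them passed the threshold. CYP26B1 (ENSG00000003137, chromosome 2, 72129238 to 72147862), which oxidises retinoic acid to more polar products, had 13, 19 and 29 counts in control and 46, 35 and 29 in overexpression libraries. The levels were 0.311, 0.385 and 0.680 CPM against 1.00, 0.801 and 0.672 CPM, so that control replicate 3 lay just above overexpression replicate 3. The log2 fold change was 0.85 (SE 0.41, 95% interval -0.09 to 1.78, edgeR adjusted p = 0.207), and 1.24 without control replicate 3 (edgeR adjusted p = 0.0616). For CYP26A1 and CYP26C1, the other enzymes of the family, the groups did not overlap, but neither passed the threshold. The groups also did not overlap for 37.6% of all genes tested. CYP26A1 had 29, 30 and 10 counts in control and 51, 48 and 43 in overexpression libraries, with a log2 fold change of 1.05 (SE 0.42, edgeR adjusted p = 0.127). CYP26C1 went from 4.00 ± 0.547 to 5.10 ± 0.579 CPM (SD, n = 3; log2 fold change 0.35, SE 0.17, edgeR adjusted p = 0.202).

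Among the retinoic acid receptors, RARG and RXRA rose, RARA did not pass the threshold and RARB was barely detected. RXRA (ENSG00000186350, chromosome 9, 134317098 to 134440585), the shared partner of the RARs and of many other nuclear receptors, was at 50.4, 47.8 and 53.4 CPM in control and at 72.9, 70.7 and 70.2 CPM in overexpression libraries. All 3 overexpression libraries were above all 3 control libraries, with means of 50.6 ± 2.79 and 71.3 ± 1.45 CPM (SD, n = 3), a 1.41-fold rise (log2 fold change 0.50, SE 0.06, edgeR adjusted p = 0.00224). The rise was called in all 14 alternatives, at 0.46 to 0.54, the highest without control replicate 3.

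RARG (ENSG00000172819, chromosome 12, 53210567 to 53232921), the RAR most abundant in skin and other epithelia, was at 18.0, 16.3 and 18.1 CPM in control and at 23.3, 21.0 and 24.0 CPM in overexpression libraries. The groups did not overlap, and the log2 fold change was 0.38 (SE 0.09, edgeR adjusted p = 0.0234). The call depended on single libraries. It was lost without control replicate 1 (0.41, edgeR adjusted p = 0.0548), without control replicate 2 (0.34, edgeR adjusted p = 0.0853), without overexpression replicate 1 (0.37, edgeR adjusted p = 0.0968) and without overexpression replicate 3 (0.35, edgeR adjusted p = 0.0996), and kept without control replicate 3, at 0.42.

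RARA (ENSG00000131759, chromosome 17, 40309180 to 40357643), the RAR found in most tissues, was at 25.6, 25.8 and 27.5 CPM in control and at 28.6, 30.4 and 24.3 CPM in overexpression libraries. Overexpression replicate 3 was the lowest and overexpression replicate 2 the highest of the 6 libraries. The log2 fold change was 0.08 (SE 0.09, 95% interval -0.14 to 0.30, edgeR adjusted p = 0.623). RARB (ENSG00000077092, chromosome 3, 24687887 to 25597929), the RAR whose own gene is a classical target of retinoic acid, had 0, 2 and 3 counts in control and 6, 0 and 0 in overexpression libraries. Only overexpression replicate 1 was above the floor of 3 counts, so RARB could not be compared at this depth.

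RXRB, the other RXR gene in the table, moved opposite to RXRA. It was at 50.8, 51.9 and 58.1 CPM in control and at 46.3, 40.0 and 42.6 CPM in overexpression libraries, without overlap (log2 fold change -0.32, SE 0.08, edgeR adjusted p = 0.0326). This call was lost without control replicate 1 or 2 or any overexpression library, at -0.37 to -0.27. The ratio of RXRA to RXRB counts within a library, a quantity chosen after the values were seen, does not depend on library scaling. It was 0.993, 0.922 and 0.919 in control and 1.58, 1.77 and 1.65 in overexpression libraries, with means of 0.944 ± 0.0418 and 1.66 ± 0.0964 (SD, n = 3), a ratio of means of 1.76. RXRB overlaps SLC39A7 on the opposite strand, whose counts were 546% of its own and whose log2 fold change was 0.04. The strand setting of the counting is not given in the sources used here, so the values of RXRB are uncertain.

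Receptors that pair with an RXR leaned upwards. Of 13 such receptors measured, 11 could be tested, all 11 had log2 fold changes above 0 with a median of 0.41, and 5 rose, 45.5% against the 8.95% of all genes tested that were higher. The list was chosen with earlier results of these data known, so this share is a description and not a test. NR1H4, the bile acid receptor FXR, had 8, 17 and 13 counts in control and 59, 65 and 78 in overexpression libraries, and its log2 fold change was 2.43 (SE 0.34, edgeR adjusted p = 0.0032). THRA, a thyroid hormone receptor, was at 7.43, 7.13 and 8.49 CPM in control and 14.6, 15.2 and 17.2 CPM in overexpression libraries (log2 fold change 1.03, SE 0.12, edgeR adjusted p = 0.00156), although its locus overlaps that of NR1D1, whose log2 fold change was 1.25. PPARG, a receptor for fatty acids, was at 25.3, 29.7 and 28.5 CPM in control and 45.3, 49.1 and 49.5 CPM in overexpression libraries (log2 fold change 0.78, SE 0.08, edgeR adjusted p = 9.6e-04). These 3 receptors were higher in every overexpression library and kept their call in every alternative that gave a value. PPARA rose from 18.4 ± 1.05 to 25.6 ± 3.84 CPM and THRB from 44.8 ± 6.45 to 59.4 ± 0.872 CPM (SD, n = 3), with edgeR adjusted p = 0.0308 and 0.0311. The call of PPARA was lost without control replicate 1 or 2 or overexpression replicate 1 or 2, at 0.41 to 0.46, and that of THRB without control replicate 1 or any overexpression library, at 0.40 to 0.44. NR1H2, the oxysterol receptor LXR-beta, had a log2 fold change of 0.03 (SE 0.11, edgeR adjusted p = 0.875).

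Coregulators, through which liganded or unliganded receptors act on chromatin, gave a like picture with smaller changes. All 12 in the table could be tested, 10 had log2 fold changes above 0 with a median of 0.28, and 7 rose, 58.3% beside the 8.95% of all genes tested that were higher. This list, too, was chosen with earlier results of these data known, so its share is a description. The coactivator NCOA3 went from 59.0 ± 3.65 to 82.5 ± 1.72 CPM (SD, n = 3; log2 fold change 0.48, SE 0.06, edgeR adjusted p = 0.00264) and the acetyltransferase EP300 from 138 ± 5.11 to 186 ± 4.26 CPM (SD, n = 3; 0.43, SE 0.06, edgeR adjusted p = 0.00236). CREBBP, the close relative of EP300, had a log2 fold change of 0.33 (SE 0.05, edgeR adjusted p = 0.00635). These 3 kept their call in all 14 alternatives. The coactivator NCOA2 (0.40, SE 0.09, edgeR adjusted p = 0.0209), the corepressor SIN3A (0.26, SE 0.06, edgeR adjusted p = 0.0249) and TBL1XR1 (0.33, SE 0.09, edgeR adjusted p = 0.0401) rose with less secure calls. NCOA2 lost its call without any 1 of the overexpression libraries at 0.40 to 0.41. SIN3A lost it without control replicate 1 or any overexpression library at 0.24 to 0.29, and TBL1XR1 without control replicate 1 or 2 or any overexpression library at 0.31 to 0.39. TBL1XR1 also lost its call when scaled by library sizes alone and with no filter on low counts. Activators and repressors of the receptors were thus both among the genes that rose.

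In all, 48 retinoid pathway genes outside the 10 members could be tested, of 60 in the table, and 17 of them were called, 14 higher and 3 lower, or 35.4% against 15.9% of all genes tested. Their median log2 fold change was 0.14, and 26 of the 48 did not overlap between the groups, beside 37.6% of all genes tested. Because all lists were chosen with earlier results of these data known, these shares are descriptions and not tests. The count depended on the libraries. Leaving out control replicates 1, 2 and 3 in turn gave 11, 11 and 19 called genes, and leaving out overexpression replicates 1, 2 and 3 gave 9, 7 and 9.

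**Figure D3:**
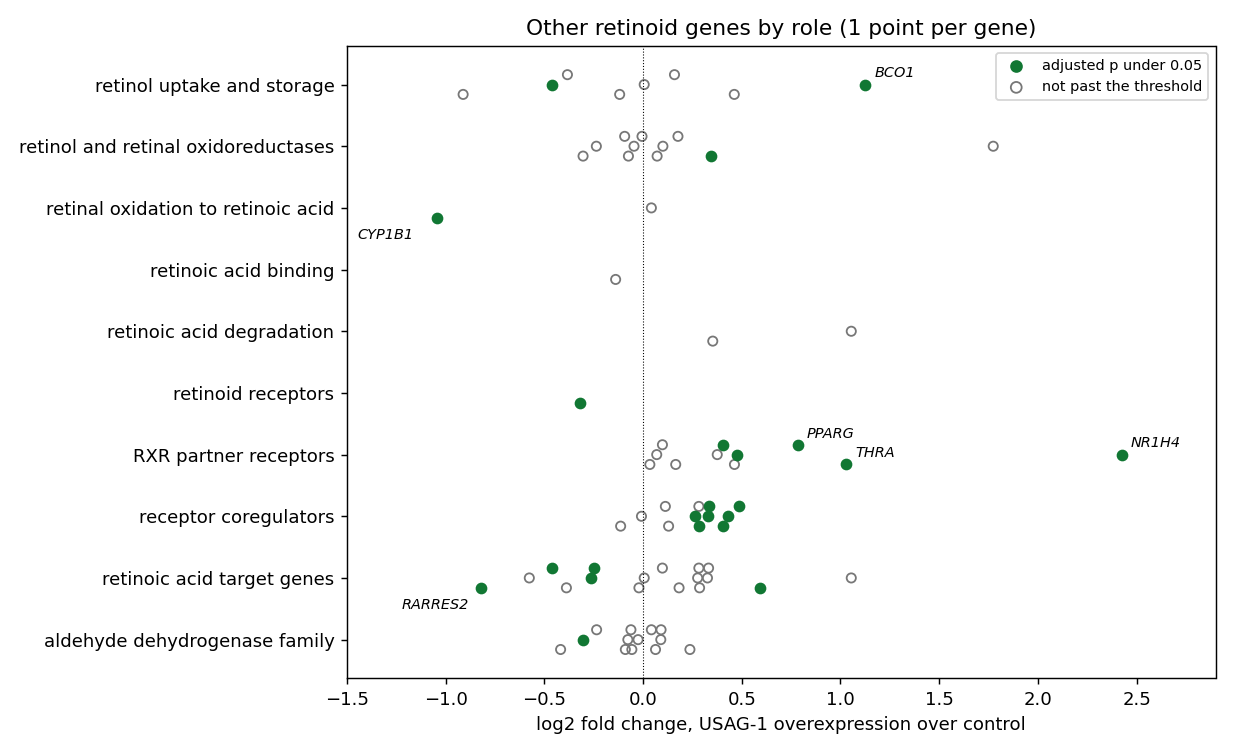
Log2 fold change of USAG-1 overexpression over control for retinoid genes outside the 10 members, grouped by role, with 1 point per gene (n = 3 libraries per group); filled points passed an edgeR adjusted p of 0.05 and open points did not. All 11 receptors that pair with an RXR lie above 0, CYP1B1 (-1.05) is the only filled point among the retinal oxidising enzymes, and 4 of the 5 filled target genes lie below 0.

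Genes reported to be induced by retinoic acid did not move in a common direction. Of 20 such genes in the table outside the members 17 could be tested, 10 had log2 fold changes above 0 and 7 below, the median was 0.10, and 5 were called, 1 higher and 4 lower. These 5 were 29.4% of the 17, beside 15.9% called over all genes tested, 8.95% higher and 6.91% lower. RARRES2, which encodes the adipokine chemerin, was at 9.27, 11.7 and 10.6 CPM in control and at 5.95, 5.50 and 6.46 CPM in overexpression libraries. It fell in every overexpression library (log2 fold change -0.82, SE 0.14, edgeR adjusted p = 0.00634). An unnamed antisense gene overlaps RARRES2, with 65% of its counts and a log2 fold change of -0.415, so the values of RARRES2 are uncertain. PLAAT4, a phospholipase also known as RARRES3, was at 23.2, 22.5 and 27.2 CPM in control and at 37.1, 33.9 and 38.8 CPM in overexpression libraries, a rise in all of them (log2 fold change 0.59, SE 0.09, edgeR adjusted p = 0.00539). RARRES2 and PLAAT4 kept their call in all 14 alternatives. BHLHE40, a transcription factor of the clock, fell with a log2 fold change of -0.26 (SE 0.07, edgeR adjusted p = 0.0355) and ICAM1, an adhesion molecule, with -0.25 (SE 0.07, edgeR adjusted p = 0.042), and STRA6, described with retinol uptake, was the remaining gene that fell. BHLHE40 lost its call without control replicate 1 or 2 or overexpression replicate 1 or 3, at -0.26 to -0.22, and ICAM1 without control replicate 2 or any overexpression library, at -0.26 to -0.24. The count of called targets was 3, 2 and 6 without control replicates 1, 2 and 3, and 2, 3 and 2 without overexpression replicates 1, 2 and 3. TGM2, a transglutaminase and a classical target, had a log2 fold change of 0.10 (SE 0.08, edgeR adjusted p = 0.462). DHRS3, the member that rose most, belongs to the same group of induced genes, and so do the untested RARB and the uncalled CYP26A1 and CRABP2.

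The genes whose profile over the 6 libraries was nearest to that of ALDH1A3 were all mitochondrially encoded. Likeness was measured as the root mean square difference of log2 CPM, each gene centred on its own mean. It was taken over 11100 genes with a symbol and a mean of at least 5 CPM. The measure is set mostly by the step between the groups, which is the fall that chose ALDH1A3. The nearest genes are therefore mainly those with a fall of like size, and likeness within a group was not tested. MT-ND1, a subunit of respiratory complex I, was nearest at 0.0636 with 2575, 2514 and 2399 CPM in control and 741, 742 and 762 CPM in overexpression libraries. The asparagine tRNA MT-TN (0.0709), the complex IV subunit MT-CO2 (0.0816), the cysteine tRNA MT-TC (0.0838) and the alanine tRNA MT-TA (0.0844) followed. The log2 fold changes of these 5 genes were -1.74, -1.82, -1.76, -1.78 and -1.83, beside -1.70 for ALDH1A3. When library sizes were computed without the mitochondrial genes, the log2 fold change of ALDH1A3 stayed within the range given above. That setting bears on the scaling only, and a link between the falls of ALDH1A3 and these genes was not tested.

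**Figure D4:**
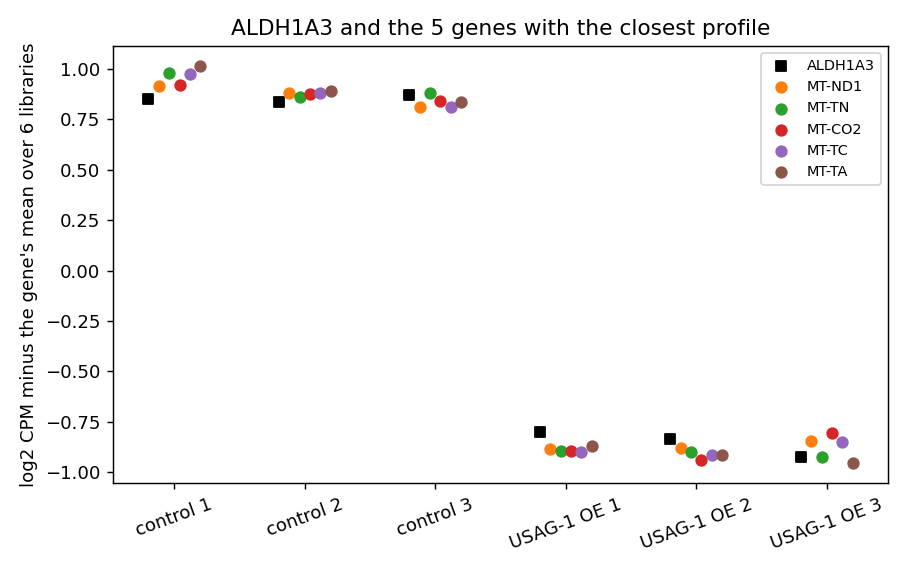
Log2 CPM minus the gene's mean over the 6 libraries for ALDH1A3 (squares) and the 5 genes of nearest profile (circles), all mitochondrially encoded, with 1 point per gene and library. All 6 genes lie at 0.81 to 1.01 in control and at -0.95 to -0.80 in overexpression libraries.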

How the data were processed

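Polyadenylated RNA was prepared as strand-marked (dUTP) paired-end libraries and sequenced on an Illumina NovaSeq instrument. The authors deposited 1 table of counts per gene for the 6 libraries, with human Ensembl identifiers, symbols and coordinates, whole numbers that were not normalised, and its name refers to FPKM although the values are counts. The submitters' processing notes name hg38, FastQC and cutadapt 1.9. The aligner, the counter, its strand setting and the annotation are not given in the sources used here. All columns of values belonged to a labelled sample (0 without one).

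Counts were tested in R 4.3.3 with edgeR 4.0.16 (filterByExpr, TMM scaling, quasi-likelihood test, Benjamini-Hochberg adjustment over all 18188 genes tested of 39234, threshold 0.05) over all 6 libraries. The genes tested held 99.9% of all counts, and 6727 genes had no count. CPM values are TMM-scaled, and log2 CPM for profiles used a prior count of 2. Alternatives were other scalings, DESeq2 1.42.0, limma-voom (limma 3.58.1), no filter, a minimum of 10 counts in every library, a replicate block and leaving out each library. The edgeR step was tested on simulated counts.

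Named were all members, every called retinoid gene except 1 that is not reported here, of each retinoid, aldehyde dehydrogenase and T and NK cell list the 2 genes of smallest p and the 2 of highest count (less the same exception), and the 5 profiles nearest to ALDH1A3. The other marker lists are given by counts of calls or summed levels, and other genes, such as CRABP1, HBB and the neighbours of ALDH1A3, were named after their values were seen. The members and lists were chosen with earlier results of these data known. Levels are not compared between genes by length and no sequences are shown, because the reference used here is of another organism. Genes listed but not analysed here include RBP4, RXRG and ALDH3A1. Of the other marker lists, 0 of 6 B cell, 0 of 5 platelet and erythroid and 0 of 2 endothelial genes tested were called, 3 of 9 myeloid (1 higher, 2 lower) and 1 of 3 fibroblast genes (higher). Over all genes tested, 15.9% were called. Platelet and erythroid markers summed to 8.19 to 109 CPM in control and 8.43 to 76.8 CPM in overexpression libraries, and myeloid markers to 114 to 201 and 165 to 185 CPM. HBB, a haemoglobin gene, reached 70.4 CPM in control replicate 2 and 51.6 CPM in overexpression replicate 1. Counting floors cover counting error only.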

Additional observations from a re-analysis of the deposited data

How the results depend on the processing

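Over 14 alternatives no result changed direction among those past the threshold. The rises of DHRS3 and RXRA kept their call in all 14, and RARG lost its call in 4 that left out 1 library, with log2 fold changes of 0.34 to 0.44 over the libraries left out. Members called numbered 2 to 3. ALDH1A2, never called, took both signs (-0.23 to 0.07). The number of genes called over all genes, 2884, was between 1137 (without overexpression replicate 2) and 5091 (without control replicate 3) when 1 library was left out, and between 2034 and 3393 otherwise. With 1 library left out, the 17 called retinoid genes outside the members became 7 to 19, the 5 called targets 2 to 6 and the 1 called aldehyde dehydrogenase 0 to 2. With no filter on low counts the called targets were 2 and the called aldehyde dehydrogenases 0. With a replicate block they were also 2 and 0, the genes called 2381 and the members called 3. Deviations of same-numbered libraries correlated at 0.0691, -0.0529 and 0.0375, and not every library correlated best with its own number. With 3 libraries a group this check cannot decide whether same-numbered libraries were paired, and the labels do not say. With no filter STRA6, RXRB, PPARA, THRB, TBL1XR1, BHLHE40, ICAM1 and ALDH4A1 lost their call, with the block STRA6, PPARA, BHLHE40, ICAM1 and ALDH4A1, and with library sizes alone TBL1XR1. Of 22 called genes outside the members, 9 kept the call in every alternative. ALDH1A1 had no value with at least 10 counts in every library. The cause of these moves was not tested. Another scaling shifted the median log2 fold change of all genes by less than 0.1. Precision is limited by depth for ALDH1A1, ALDH1A2, RARB and CYP26B1, and by 3 libraries a group for all genes.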
